A study of Mus musculus with 25 samples.

Results

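Glucocorticoid-responsive genes were followed in microglia of mice with deletion of Bin1 in neurons and of their controls, as a check of the stress hormone state of the animals. The set holds 8 genes given by symbol, Nr3c1, Fkbp5, Tsc22d3, Sgk1, Klf9, Ddit4, Zbtb16 and Errfi1, out of 43411 gene identifiers measured. All 8 were found, and 7 had enough counts to be tested. Zbtb16 did not. In Homo-cKO against WT microglia, 1 of the 7 passed the test, Fkbp5, which rose by a log2 fold change of 0.48, where 12.7% of all genes passed. In Homo-cKO against Het-cKO microglia, 1 of the 7 passed, Ddit4, which fell by 1.65 on the log2 scale, where 22.7% of all genes passed. None passed in Het-cKO against WT, where 0% of all genes did. Passing means an adjusted p below 0.05 in edgeR's quasi-likelihood test.

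Microglia, the resident macrophages of the brain, were sorted as CD11b+ and CD45med cells from 23 mice of 3 months of age, 1 library per mouse. Homo-cKO mice carried Bin1flox/flox with Thy1-Cre+ (10 mice, 5 female and 5 male), Het-cKO mice carried Bin1flox/wt with Thy1-Cre+ (7 mice, 4 female and 3 male), and WT mice carried Bin1flox/wt with Thy1-Cre- (6 mice, 2 female and 4 male), so that every mouse had at least 1 floxed allele and no mouse had Thy1-Cre without a floxed allele. The strains were B6.129S6-Bin1tm2Gcp/J and FVB/N-Tg(Thy1-cre)1Vln/J. The Thy1 promoter drives Cre in neurons, so microglia were not the cells in which the allele was to be deleted. Of the 13 WT and Het-cKO mice, all had animal numbers that begin with 02, whereas 6 Homo-cKO mice had numbers from 03 and 4 had numbers from 04. What these digits stand for is not given in the sources used here. Genotype and number range therefore cannot be told apart in any comparison of Homo-cKO mice with the others, and the 2 ranges of Homo-cKO mice are the only pair within a genotype. No hormone level is among the values used here.

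Total counts were 10812877 to 16734740 per mouse. Bin1 itself was at 600 to 814 CPM (the count scaled to the depth of its library) in WT, 629 to 747 CPM in Het-cKO and 327.6 to 673 CPM in Homo-cKO microglia. Most Homo-cKO mice lay below all WT and Het-cKO mice, and the share of all genes that do so was not counted. The cause of this lower Bin1 in sorted microglia was not tested, and these values do not check a deletion in neurons. Microglia markers were present in all mice, P2ry12 at 6498 CPM or more and Cx3cr1 at 5683 CPM or more. Of 8 microglia markers, 6 passed and were lower in Homo-cKO than in WT microglia, where 12.7% of all genes passed. Summed, the 8 markers were at 57989 to 83639 CPM in WT and 48077 to 56306 CPM in Homo-cKO mice. Neuron markers summed to 11.7 to 29.9 CPM in WT and 4.29 to 8.11 CPM in Homo-cKO mice, and monocyte and neutrophil markers to 4.63 to 32.9 and 12.6 to 90.0 CPM. Of the other lists of markers, 1 of 4 tested genes fell for astrocytes, 1 of 4 for oligodendrocytes, 1 of 1 for endothelial and mural cells and 0 of 4 for border macrophages. The part of these differences in the results below was not tested, and in sorted bulk cells fewer cells of a type and less RNA per cell cannot be told apart. In 4 Homo-cKO mice of the 03 range (M-0328, M-0329, F-0333 and F-0342), Fos, an immediate-early gene that responds within minutes to stimulation of a cell, was at 824 to 1459 CPM, whereas the other 19 mice were at 6.999 CPM or less. Values without these 4 mice stand beside several results below, and this setting was chosen after the data were seen. Without them, 5 of the 8 microglia markers passed and were lower than in WT, where 8.34% of all genes passed.

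Glucocorticoids, corticosterone in mice, enter cells and bind the glucocorticoid receptor, which is held in the cytoplasm by heat shock protein 90 and its co-chaperones. The receptor with its ligand moves into the nucleus and binds DNA, most strongly at a palindrome of the letters AGAACA and TGTTCT that are 3 bases apart. It raises transcription of genes such as Fkbp5 and Tsc22d3 and holds back inflammatory genes, and microglia express the receptor. The members are the receptor itself (Nr3c1), a co-chaperone that the receptor induces and that lowers its affinity for hormone (Fkbp5), an inhibitor of inflammatory transcription known as GILZ (Tsc22d3), a kinase of ion transport and cell survival (Sgk1), an inhibitor of mTORC1 (Ddit4), 2 zinc finger transcription factors (Klf9 and Zbtb16) and an inhibitor of EGF receptor signalling (Errfi1).

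To show what the receptor's motif looks like near these genes, the 250 bases before annotated starts of RefSeq transcripts (GRCm38.p6) were searched on both strands for AGAACA or TGTTCT and for the palindrome of both, AGAACA followed after 3 bases by TGTTCT. Of the 8 members, 6 had a window, 14 windows in all, and no window was found for Nr3c1 and Zbtb16. The hexamer was in 4 of the 14 windows, and in 16.1% of all 32851 windows. The palindrome was in 1 member window, a start of Sgk1, and in 3 windows of the 32851. Sgk1 has several starts, and its window with the palindrome and the window of its outermost start are printed first, then the window of Fkbp5, the member that passed against WT, where neither was present. Capitals mark the hexamers.
Sgk1, chr10:21993640-21993889, plus strand, between exons of longer Sgk1 transcripts: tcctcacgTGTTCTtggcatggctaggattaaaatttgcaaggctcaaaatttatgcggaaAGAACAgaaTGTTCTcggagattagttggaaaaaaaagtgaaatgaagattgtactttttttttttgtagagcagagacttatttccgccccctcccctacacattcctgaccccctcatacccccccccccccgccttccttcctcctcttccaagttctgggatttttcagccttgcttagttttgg
Sgk1, chr10:21881934-21882183, plus strand, immediately before the gene: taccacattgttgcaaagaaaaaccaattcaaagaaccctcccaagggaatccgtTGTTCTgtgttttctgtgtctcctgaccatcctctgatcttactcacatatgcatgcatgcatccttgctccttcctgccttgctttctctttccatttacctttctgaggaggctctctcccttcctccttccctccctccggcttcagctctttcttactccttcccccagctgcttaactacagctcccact
Fkbp5, chr17:28486150-28486399, minus strand, between exons of longer Fkbp5 transcripts: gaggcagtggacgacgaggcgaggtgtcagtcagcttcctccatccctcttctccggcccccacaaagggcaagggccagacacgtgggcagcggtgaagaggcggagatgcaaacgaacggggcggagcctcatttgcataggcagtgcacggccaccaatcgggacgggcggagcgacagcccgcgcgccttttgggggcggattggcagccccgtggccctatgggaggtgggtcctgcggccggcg
In the Sgk1 window on the first line, the palindrome began 189 bases before the start, and TGTTCT was present at 1 further place. A match of letters is a description, and binding of the receptor was not measured here.

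Levels of different genes can be set beside each other only per length. Per kb of exon, WT microglia had 196 CPM of Sgk1 ± 17.5 (SD, n = 6), 27.6 ± 2.08 of Nr3c1, 20.3 ± 2.81 of Errfi1 and 18.1 ± 5.26 of Tsc22d3. Fkbp5 was at 7.30 ± 0.642 CPM per kb and Ddit4 at 6.65 ± 3.50. Klf9 was at 0.370 ± 0.144 CPM per kb, and Zbtb16 at 0.00704 ± 0.0117. In this order, Errfi1 and Tsc22d3 differed by less than their spread between mice, and so did Fkbp5 and Ddit4. The mineralocorticoid receptor Nr3c2, the other receptor of corticosterone, was at 1.51 ± 0.229 CPM per kb, below Nr3c1 in the same mice.

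Nr3c1 (ENSMUSG00000024431.12, chromosome 18 of GRCm38 from 39410545 to 39519421), the glucocorticoid receptor, varied little between mice. Its lowest, median and highest values were 187.8, 210.7 and 230.5 CPM in WT mice, 192.3, 206.4 and 230 CPM in Het-cKO mice and 168.3, 196.8 and 209.5 CPM in Homo-cKO mice. The 3 genotypes overlapped, and 1 Homo-cKO mouse, F-0342, lay below all others. The log2 fold change was -0.11 in Homo-cKO against WT (standard error, SE, 0.06, adjusted p = 0.23) and 0.01 in Het-cKO against WT (SE 0.06, adjusted p = 0.97). Nr3c1 lies 6.97 Mb from Bin1 on the same chromosome.

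Fkbp5 (ENSMUSG00000024222.14, chromosome 17 from 28399094 to 28517527), a gene that the receptor induces, was higher in Homo-cKO than in WT microglia. Receptor activity was not measured. The WT mice were at 60.6, 69.3 and 77.4 CPM (lowest, median and highest), the Het-cKO mice at 60.5, 78.2 and 110 CPM, and the Homo-cKO mice at 75.9, 83.5 and 162 CPM. Of the 10 Homo-cKO mice, 9 lay above all WT mice, and 2 lay above all Het-cKO mice. Mean values were 69.1 ± 6.07 CPM (SD, n = 6) in WT, 79.6 ± 16.2 CPM (SD, n = 7) in Het-cKO and 96.1 ± 26.7 CPM (SD, n = 10) in Homo-cKO mice. The log2 fold change in Homo-cKO against WT was 0.48 (SE 0.14, adjusted p = 0.028), and this was 1 of 7 members, where 12.7% of all 12908 genes tested had an adjusted p below 0.05. With the fold change above 1.5 that the study asked of a DEG, no member was called against WT, where 3.4% of all genes were. At an unadjusted p below 0.05 there were 2 members, Fkbp5 and Ddit4, and 27.1% of all genes. The call of Fkbp5 was lost without WT mouse F-0210 (log2 fold change 0.47, adjusted p = 0.065), M-0211 (0.45, adjusted p = 0.074) or M-0222 (0.48, adjusted p = 0.056), and also without the 4 mice with high Fos (0.46, adjusted p = 0.083). Against Het-cKO the log2 fold change was 0.26 (SE 0.14, adjusted p = 0.16), and the same Homo-cKO mice enter both comparisons.

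**Figure D1:**
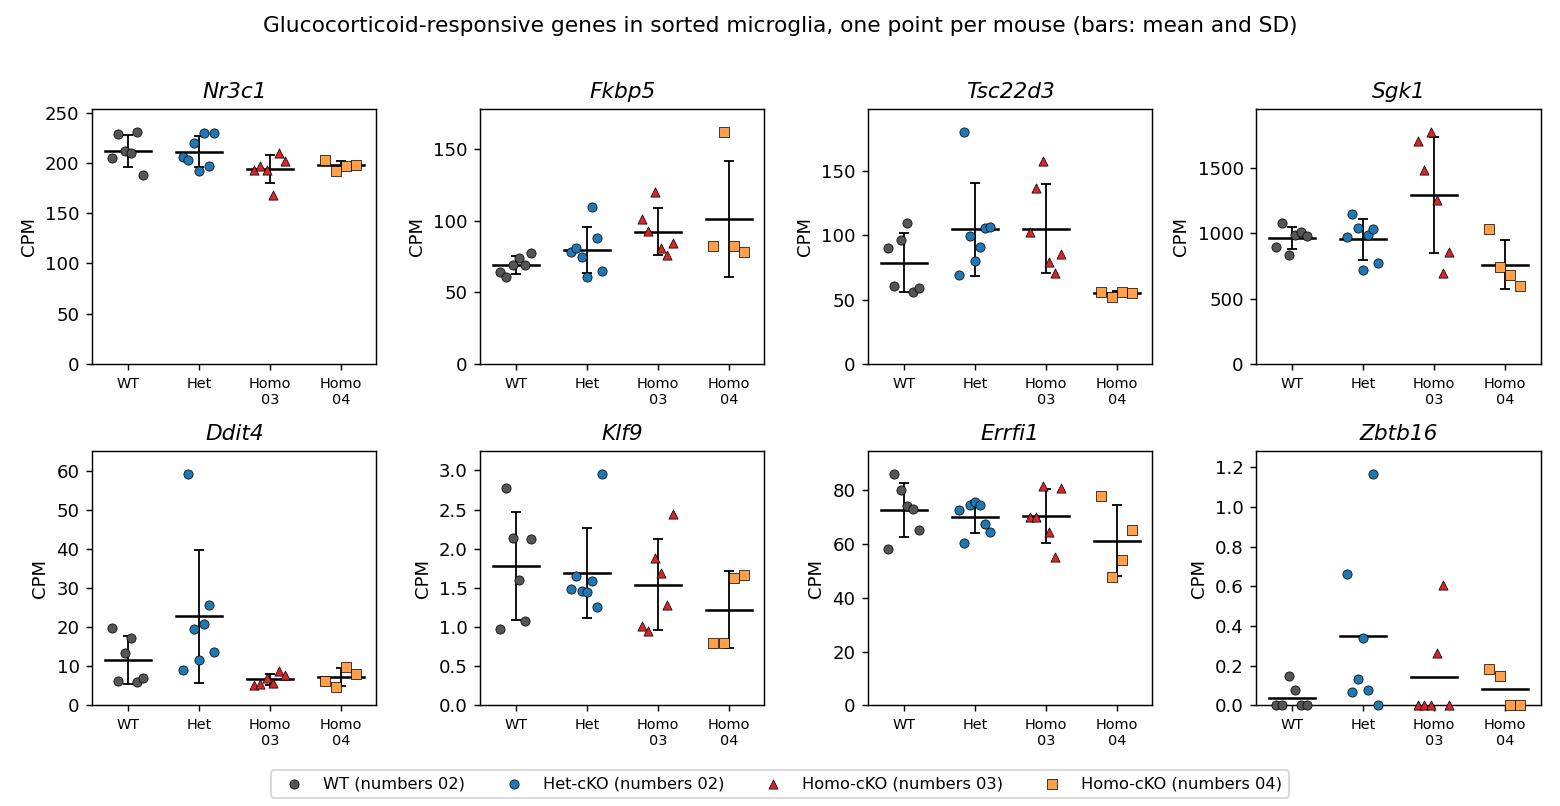
CPM (vertical axis, from 0) of the 8 members in WT, Het-cKO and Homo-cKO mice of number ranges 03 and 04 (horizontal axis), 1 point per mouse, with horizontal bars for means and error bars for the SD (for Zbtb16 the mean alone). Fkbp5 in 9 of 10 Homo-cKO mice lies above the highest WT mouse at 77.4 CPM, Ddit4 in all Homo-cKO mice lies at or below 9.92 CPM, and Tsc22d3 in the range 04 mice lies between 52.1 and 56.2 CPM.

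The highest Fkbp5 was in Homo-cKO mouse M-0436 at 162 CPM, the same mouse that had the lowest Tsc22d3 of all mice at 52.1 CPM. Fkbp5 and Tsc22d3, both textbook targets of the receptor, were thus at opposite ends in that animal. In the other Homo-cKO mice of range 04 Fkbp5 was at 78.2, 82.5 and 82.6 CPM.

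Tsc22d3 (ENSMUSG00000031431.11, chromosome X from 140539528 to 140600659) did not pass in any genotype comparison and varied widely between mice. It was at 55.8, 75.5 and 110 CPM in WT (lowest, median and highest), at 69.1, 99.5 and 180 CPM in Het-cKO and at 52.1, 74.8 and 158 CPM in Homo-cKO mice. The groups overlapped over most of their range. The log2 fold change was 0.10 in Homo-cKO against WT (SE 0.24, adjusted p = 0.85), 0.38 in Het-cKO against WT (SE 0.26, adjusted p = 0.76) and -0.29 in Homo-cKO against Het-cKO (SE 0.23, adjusted p = 0.38). Without the 4 mice with high Fos, Tsc22d3 was lower in Homo-cKO than in Het-cKO mice (log2 fold change -0.73, adjusted p = 0.016), where 14.9% of all genes passed. Against WT its direction then turned to -0.35 (adjusted p = 0.32). Without WT mouse F-0224 or Homo-cKO mouse M-0329 or F-0333, its value against WT also turned, to -0.00, -0.04 and -0.03.

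Sgk1 (ENSMUSG00000019970.13, chromosome 10 from 21882184 to 21999903) had the highest level of the members per length. It was at 833, 981 and 1076 CPM in WT (lowest, median and highest), at 717, 986 and 1149 CPM in Het-cKO and at 592, 943 and 1771 CPM in Homo-cKO mice. Of the 10 Homo-cKO mice, 4 lay above all WT and Het-cKO mice and 4 lay below all WT mice, so that the means of 962 ± 86.0 CPM (SD, n = 6) and 1080 ± 443 CPM (SD, n = 10) differed by less than the spread in the Homo-cKO mice. The log2 fold change in Homo-cKO against WT was 0.14 (SE 0.20, adjusted p = 0.69). The 4 high mice were those with high Fos, 1771 CPM in F-0333, 1701 CPM in M-0328, 1480 CPM in M-0329 and 1253 CPM in F-0342. Without them Sgk1 was lower in Homo-cKO than in WT mice, by a log2 fold change of -0.37 (adjusted p = 0.046). The 4 mice left out had the highest Sgk1 of all mice and were all Homo-cKO. Leaving them out therefore lowers the Homo-cKO level by itself, and this call cannot show a difference between the genotypes. With the 4 mice 1 of 7 members was called, Fkbp5, where 12.7% of all genes were. Without the 4 mice 1 of 7 was called, Sgk1, where 8.34% of all genes were.

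Ddit4 (ENSMUSG00000020108.3, chromosome 10 from 59949669 to 59951834), also known as REDD1, is raised by glucocorticoids and by hypoxia and energy stress, and its product restrains mTORC1. It was at 6.02, 10.2 and 19.98 CPM in WT (lowest, median and highest), at 9.04, 19.7 and 59.4 CPM in Het-cKO and at 4.68, 6.64 and 9.92 CPM in Homo-cKO mice. Of the 10 Homo-cKO mice, 9 lay below all Het-cKO mice and 4 below all WT mice. Ddit4 fell by 1.65 on the log2 scale in Homo-cKO against Het-cKO (SE 0.30, adjusted p = 0.00055). It was the 1 member of 7 that passed there, where 22.7% of all genes had an adjusted p below 0.05 and 6.62% were DEGs. The call was kept with each of the 23 mice left out (adjusted p from 0.00029 to 0.0017) and without the 4 mice with high Fos (-1.50, adjusted p = 0.010). Against WT it was lower in Homo-cKO mice, with a log2 fold change of -0.80 (SE 0.32, unadjusted p = 0.018, adjusted p = 0.10), which did not pass, and in Het-cKO against WT it was higher by 0.85 (SE 0.35, unadjusted p = 0.023, adjusted p = 0.58), which did not pass either. The WT mean of 11.7 ± 6.14 CPM (SD, n = 6) thus stood between 22.8 ± 17.1 CPM (SD, n = 7) in Het-cKO and 6.92 ± 1.71 CPM (SD, n = 10) in Homo-cKO mice, and neither step to a neighbour passed the test on its own.

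**Figure D2:**
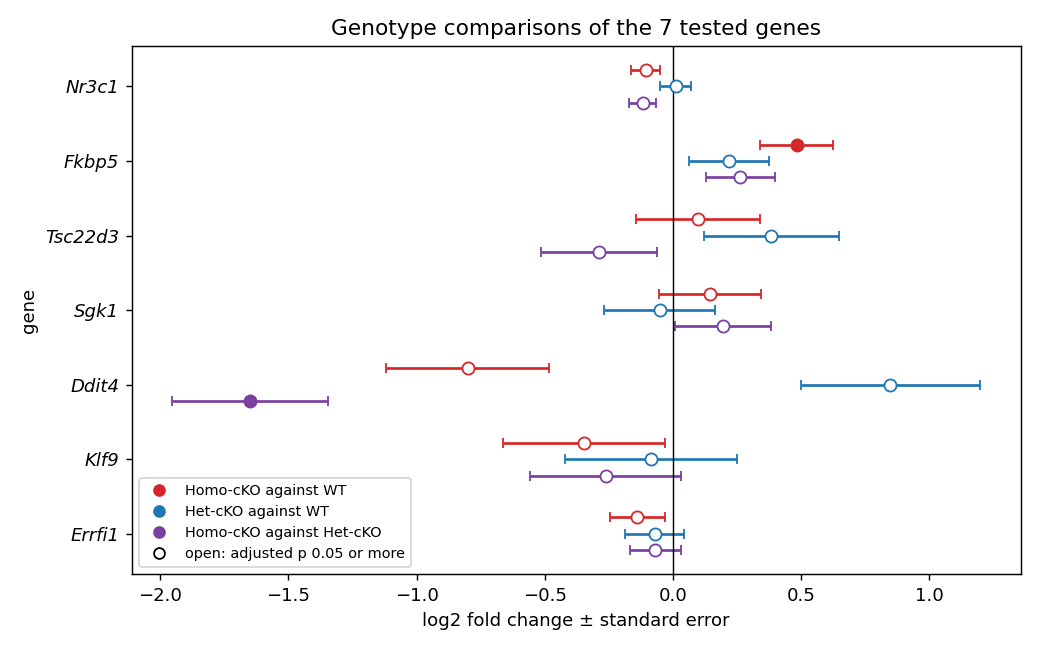
Log2 fold change with its SE (horizontal axis) of the 7 tested members (vertical axis) in 3 comparisons of genotypes, filled where the adjusted p was below 0.05. The filled points are Fkbp5 in Homo-cKO against WT at 0.48 and Ddit4 in Homo-cKO against Het-cKO at -1.65, and the comparisons share mice.

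The transcription factors were at low levels. Klf9 (ENSMUSG00000033863.1, chromosome 19 from 23141226 to 23168134) was at 0.793 to 2.96 CPM over all mice, and its log2 fold change in Homo-cKO against WT was -0.35 (SE 0.32, adjusted p = 0.52), which is within the spread between mice. Zbtb16 (ENSMUSG00000066687.4, chromosome 9 from 48654297 to 48836222), a gene strongly induced by glucocorticoids in other tissues, had no count in 11 of the 23 mice and at most 1.17 CPM, in Het-cKO mouse F-0219. It was not tested. Errfi1 (ENSMUSG00000028967.8, chromosome 4 from 150853919 to 150868892) was at 58.1, 73.7 and 86.2 CPM in WT, 60.4, 72.7 and 75.8 CPM in Het-cKO and 47.7, 67.7 and 81.6 CPM in Homo-cKO mice, with a log2 fold change of -0.14 in Homo-cKO against WT (SE 0.11, adjusted p = 0.44). The groups of all 3 genes overlapped.

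In Het-cKO against WT, where both groups had numbers from 02, none of the 7 members passed edgeR's test, and 0% of all genes did. At an unadjusted p below 0.05 there was 1 member, Ddit4, beside 998 genes of all (7.73%). DESeq2 called 3 genes and limma-voom 0, with no member among them. The median log2 fold change of the 7 members was 0.01, and that of all genes tested was -0.003.

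Between the number ranges of Homo-cKO mice, Tsc22d3 and Sgk1 had the widest differences. Tsc22d3 was at 70.7, 93.9 and 158 CPM in the 6 mice of range 03 (lowest, median and highest) and at 52.1, 55.3, 55.8 and 56.2 CPM in the 4 mice of range 04. These ranges did not overlap, and the 4 mice of range 04 lay close together (54.9 ± 1.87 CPM, SD, n = 4). How many of all genes did not overlap between the number ranges was not counted. Sgk1 was at 694, 1367 and 1771 CPM in range 03 and at 592, 680, 739 and 1028 CPM in range 04, which overlapped. The log2 fold changes of range 04 against range 03 were -0.94 for Tsc22d3 (SE 0.25, unadjusted p = 0.00079, adjusted p = 0.097) and -0.77 for Sgk1 (SE 0.20, unadjusted p = 0.00076, adjusted p = 0.096). Neither passed edgeR's test, so that 0 of 7 members were called where 0.442% of all genes were, with 2 members and 9.86% of all genes at an unadjusted p below 0.05. DESeq2 called both (adjusted p = 0.041 and 0.031), where 1.3% of all genes passed, and limma-voom called neither, where 0.155% did. Without the 4 mice with high Fos, all of range 03, Sgk1 differed between the ranges by -0.03 (adjusted p = 1.0) and Tsc22d3 by -0.51 (adjusted p = 0.88), so that the difference in Sgk1 rests on those mice. With them, without mouse M-0344 both passed (Tsc22d3 -1.04, adjusted p = 0.043, and Sgk1 -0.90, adjusted p = 0.010), and Sgk1 also passed without mouse F-0357 (-0.88, adjusted p = 0.022) or F-0432 (-0.93, adjusted p = 0.042).

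Set against WT, the estimates of the ranges had opposite signs for these genes, and none passed. Tsc22d3 was at a log2 fold change of 0.40 in range 03 (SE 0.22, adjusted p = 0.24) and -0.54 in range 04 (SE 0.25, adjusted p = 0.21), and Sgk1 at 0.40 (SE 0.18, adjusted p = 0.15) and -0.37 (SE 0.20, adjusted p = 0.30). Fkbp5 was higher than in WT on both sides, at 0.43 (SE 0.16, adjusted p = 0.084) and 0.56 (SE 0.18, adjusted p = 0.057), and Ddit4 lower on both, at -0.85 (SE 0.37, adjusted p = 0.14) and -0.73 (SE 0.41, adjusted p = 0.32). None of the 7 members passed in range 03 against WT, where 10.8% of all genes did, or in range 04 against WT, where 6.46% did. At an unadjusted p below 0.05 there were 3 members and 25.8% of all genes in range 03, and 2 members and 20.8% of all genes in range 04. Taken alone with WT and Het-cKO mice, range 03 gave a call of Fkbp5 (0.41, adjusted p = 0.039), where 10.8% of all genes passed. Without the 4 mice with high Fos, the other 2 mice of range 03 were at 857 and 694 CPM of Sgk1 and 85.5 and 70.7 CPM of Tsc22d3, and the values of range 03 against WT were -0.35 for Sgk1 (SE 0.17, adjusted p = 0.33) and -0.04 for Tsc22d3 (SE 0.27, adjusted p = 0.97), so that neither gene then had opposite signs in the ranges. These comparisons share the WT mice.

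**Figure D3:**
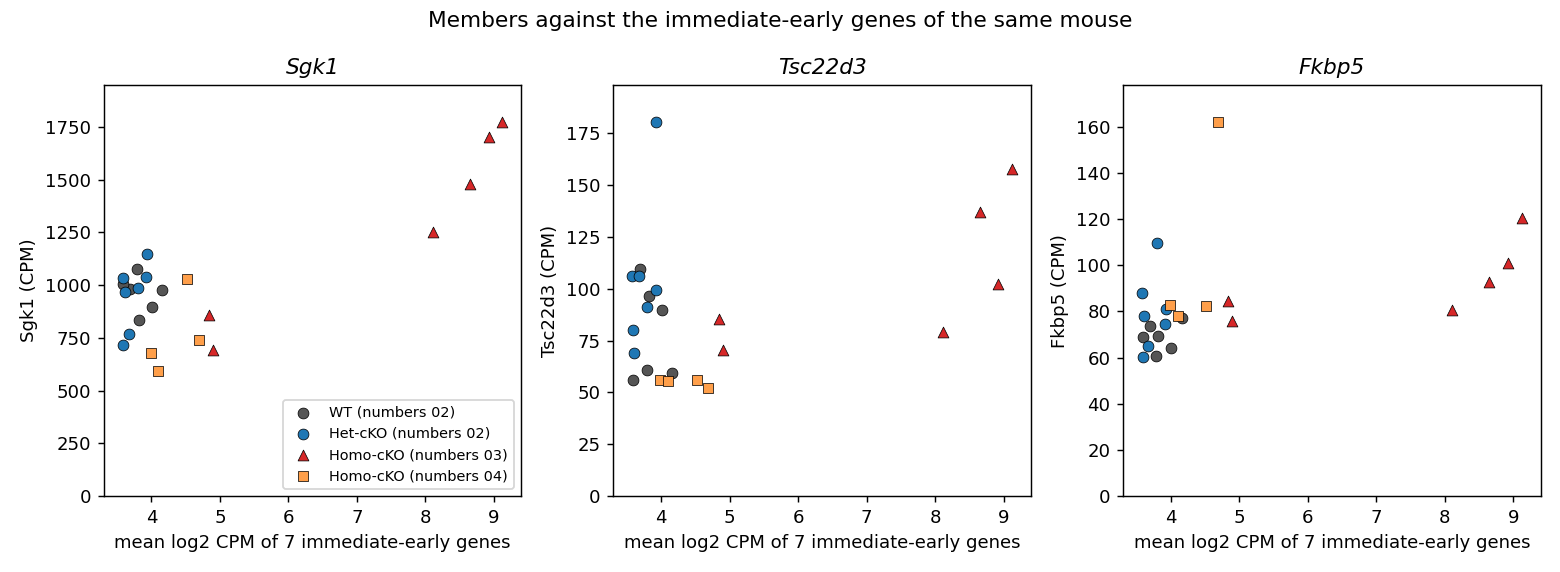
CPM of Sgk1, Tsc22d3 and Fkbp5 (vertical axes, from 0) against the mean log2 CPM of 7 immediate-early genes (horizontal axis), 1 point per mouse. The 4 mice with a mean above 8 are the Homo-cKO mice with high Fos, and their Sgk1 lies between 1253 and 1771 CPM, above all other mice.

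Immediate-early genes and Sgk1 were highest in the same 4 mice. The mean log2 CPM of these genes was 9.12, 8.92, 8.65 and 8.11 in the mice with Sgk1 at 1771, 1701, 1480 and 1253 CPM, and 3.58 to 4.90 in the other 19 mice. Among the 19, the highest means, 4.90 in M-0344 and 4.84 in F-0357, went with 694 and 857.5 CPM of Sgk1. The highest Sgk1 of the 19, 1149 CPM in F-0206, went with a mean of 3.93. No correlation was computed. Tsc22d3 in the 4 mice with high Fos was at 158, 102, 137 and 79.0 CPM, and Fkbp5 at 120, 101, 92.8 and 80.7 CPM, which overlapped with the other mice. With the score as a covariate, Sgk1 was lower in Homo-cKO than in WT mice (log2 fold change -0.53, adjusted p = 0.0091), and lower than in Het-cKO mice (-0.50, adjusted p = 0.0065). Of all genes, 7.09% passed against WT and 12.2% against Het-cKO with this covariate. Between the number ranges the value of Sgk1 was then 0.14 (adjusted p = 0.94). The 4 high mice are all of range 03, so that immediate-early level and range cannot be fully told apart.

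Among the 13 WT and Het-cKO mice, Tsc22d3 and Ddit4 varied together. Pearson's r of log2 CPM was 0.95 (permutation test, p = 3e-05, adjusted over 21 pairs of members p = 0.00063), and Spearman's rho was 0.80 (permutation test, p = 0.0019, adjusted p = 0.041). The relation was present within WT (r = 0.93, n = 6) and within Het-cKO mice (r = 0.93, n = 7), and r was 0.87 without the 2 mice farthest from the median of Tsc22d3. Het-cKO mouse F-0206 had the highest value of both, 180 CPM of Tsc22d3 and 59.4 CPM of Ddit4. Per1, a clock gene that glucocorticoids induce, was also highest of the 13 in that mouse, at 10.9 CPM, and so was Sgk1 at 1149 CPM. Fkbp5 at 81.0 CPM and Mt1 at 25.3 CPM were not the highest there. Of the 21 pairs, Tsc22d3 with Ddit4 was the only pair with an adjusted p below 0.05 by Pearson and also by Spearman. Fkbp5 and Tsc22d3 had an r of 0.27 (permutation test, adjusted p = 0.84) and Fkbp5 and Sgk1 an r of 0.46 (permutation test, adjusted p = 0.62) over the same 13 mice.

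**Figure D4:**
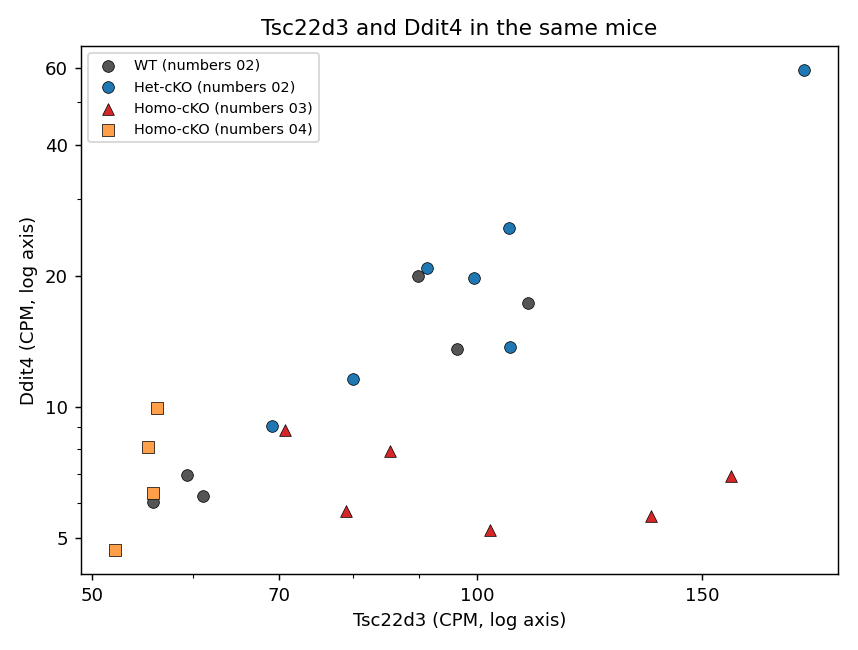
CPM of Ddit4 (vertical log axis) against CPM of Tsc22d3 (horizontal log axis), 1 point per mouse. The WT and Het-cKO mice lie along a rising line up to 180 and 59.4 CPM, and the Homo-cKO mice stay at or below 9.92 CPM of Ddit4 over 52.1 to 158 CPM of Tsc22d3.

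In the Homo-cKO mice Ddit4 stayed between 4.68 and 9.92 CPM where Tsc22d3 ran from 52.1 to 158 CPM. The mice with 158, 137 and 102 CPM of Tsc22d3 had 6.93, 5.60 and 5.21 CPM of Ddit4. No r was computed over the Homo-cKO mice, because they fall into separate clusters by their immediate-early genes, and the difference from the other mice was not tested.

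The genes most like Tsc22d3 over the 23 mice, once genotype with number range and sex had been taken out, were Gga3 (r = 0.82), Nfkbia (r = 0.77) and Adrb1 (r = 0.74) among 9592 genes, and Ddit4 had an r of 0.67. Within the 13 WT and Het-cKO mice alone, r was 0.78 for Gga3, 0.67 for Nfkbia and 0.84 for Adrb1. That r is of log2 CPM with genotype and sex left in, so it is not the same measure. Nfkbia encodes the inhibitor of NF-kB and is also induced by glucocorticoids. For Fkbp5 the most alike genes were Racgap1 (r = 0.78), Psme3 (r = 0.75) and Ppan (r = 0.74). Within the 13 WT and Het-cKO mice, with genotype and sex left in, r was 0.42, 0.59 and 0.46. These r are given as a description, and mice share library and depth differences.

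No member passed edgeR's test of males against females, where 0.0852% of all genes passed, and none was at an unadjusted p below 0.05, where 5.83% of all genes were, and DESeq2 and limma-voom called no member. Within the sexes, Errfi1 was lower in male Homo-cKO than in male WT mice, 47.7 to 70.3 CPM in 5 mice against 73.0 to 86.2 CPM in 4 mice with no overlap, by a log2 fold change of -0.40 (SE 0.11, adjusted p = 0.033). It was the 1 member called in males, where 6.06% of all genes were. The share of all genes without overlap in males was not counted. In females, where 0.457% of all genes and no member passed (at an unadjusted p below 0.05, none of the 7 and 14.7% of all genes), Errfi1 was at 64.7 to 81.6 CPM in 5 Homo-cKO and 58.1 to 65.5 CPM in 2 WT mice, a log2 fold change of 0.26 (SE 0.14, adjusted p = 0.39). The test of the difference between the sexes gave -0.66 (SE 0.18, unadjusted p = 0.0011, adjusted p = 0.75), and 0 of the 12908 genes passed it, with 644 at an unadjusted p below 0.05.

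Genes of the proteins that hold the receptor ready for hormone, or that make and remove the hormone in cells, formed a list of 12. Of these, 10 were tested and none passed edgeR's test in Homo-cKO against WT, with 2 of the 10 and 27.1% of all genes at an unadjusted p below 0.05. Their median log2 fold change was 0.04, beside 0.01 for all genes. In Homo-cKO against Het-cKO, where 22.7% of all genes passed, 1 of the 10 rose and 2 fell. Hsp90ab1, which encodes the abundant form of heat shock protein 90, was at 466 ± 60.8 CPM (SD, n = 6) in WT and 441 ± 91.95 CPM (SD, n = 10) in Homo-cKO mice, with a log2 fold change of -0.07 (SE 0.12, adjusted p = 0.75). Ptges3, the co-chaperone p23, was at 110 ± 11.3 and 127 ± 14.0 CPM, with a log2 fold change of 0.21 (SE 0.08, adjusted p = 0.096), and passed without Homo-cKO mouse M-0328 (0.25, adjusted p = 0.041). Hsd11b1, whose enzyme makes active hormone from its inert form, was at 0.509 CPM or less, and Hsd11b2, whose enzyme does the reverse, had no count in any mouse.

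Among 20 other genes that glucocorticoids induce, 15 were tested. In Homo-cKO against WT, where 12.7% of all genes passed, 3 of the 15 rose, Dusp1, Zfp36 and Mt1. The median log2 fold change was 0.30 over the 15, beside 0.01 for all genes. In Homo-cKO against Het-cKO, where 22.7% of all genes passed, 5 of the 15 rose and 2 fell. With the mice with high Fos left out, 14 were tested against WT, where 8.34% of all genes passed. Of the 14, 2 rose (Mt1 and Zfp36), and the median was 0.05. Mt1, a metal-binding metallothionein, was at 24.7, 35.2 and 37.2 CPM in WT (lowest, median and highest), 22.6, 26.3 and 39.5 CPM in Het-cKO and 38.0, 47.1 and 61.3 CPM in Homo-cKO mice. All 10 Homo-cKO mice lay above all WT mice, and the share of all genes that separate in this way was not counted. The log2 fold change of Mt1 was 0.54 (SE 0.11, adjusted p = 0.0026), and 0.54 (adjusted p = 0.012) without the 4 mice with high Fos. Dusp1, a phosphatase that turns off MAP kinases, was at 1.67 to 7.04 CPM in WT, and in Homo-cKO mice at 440 to 973 CPM in the 4 mice with high Fos and 5.01 to 11.3 CPM in the other 6. Its log2 fold change was 5.89 (SE 1.28, adjusted p = 0.0039), and 0.62 (adjusted p = 0.25) without those 4. Zfp36, which destabilises inflammatory mRNAs, was at 109, 128 and 150 CPM in WT and 141, 220 and 1235 CPM in Homo-cKO mice, with a log2 fold change of 2.13 (SE 0.48, adjusted p = 0.0055), and 0.48 (adjusted p = 0.013) without the 4 mice. Dusp1 and Zfp36 are also immediate-early genes, induced by many stimuli without hormone.

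**Figure D5:**
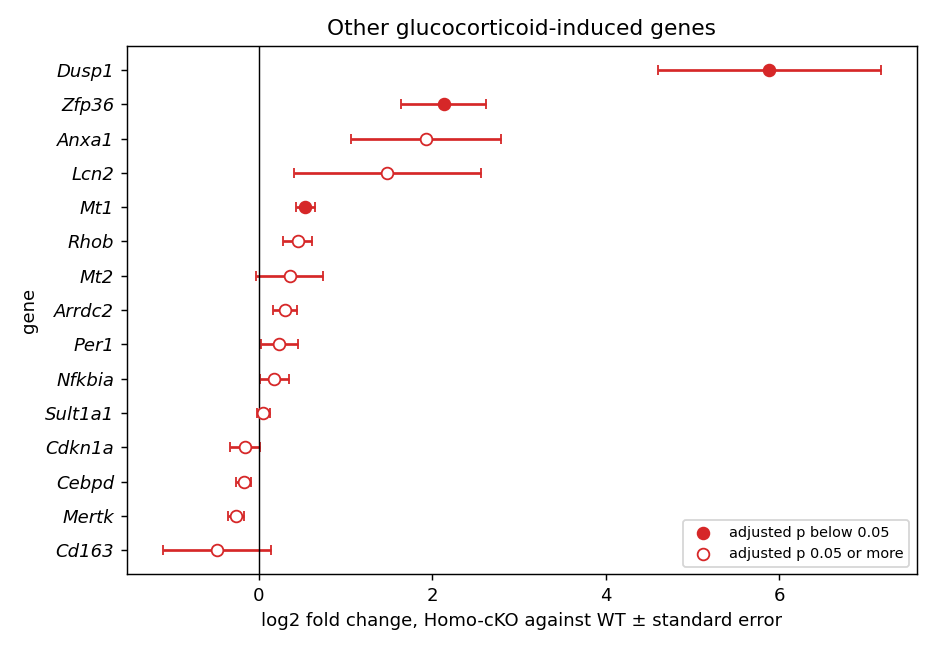
Log2 fold change with its SE (horizontal axis) in Homo-cKO against WT microglia of the 15 tested genes of the list of other glucocorticoid-induced genes (vertical axis), filled where the adjusted p was below 0.05. Dusp1, Zfp36 and Mt1 are filled, at 5.89, 2.13 and 0.54.

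Of the genes of that list that did not pass, Mertk and Rhob had the highest mean CPM, which is not scaled by length. Mertk, a receptor for the uptake of dying cells, was at 876 ± 140 CPM (SD, n = 6) in WT and 737 ± 84.4 CPM (SD, n = 10) in Homo-cKO mice (log2 fold change -0.26, SE 0.09, adjusted p = 0.067), and passed without WT mouse M-0214 (-0.32, adjusted p = 0.022) or Homo-cKO mouse M-0329 (-0.29, adjusted p = 0.049). Rhob, a small GTPase, was at 444 ± 43.2 and 616 ± 213.5 CPM (log2 fold change 0.45, SE 0.16, adjusted p = 0.072), and passed without Homo-cKO mouse M-0436 (0.53, adjusted p = 0.020). Rhob without the mice with high Fos was at a log2 fold change of 0.04 (adjusted p = 0.85), and with Homo-cKO mice of range 03 only at 0.72 (adjusted p = 0.0012).

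Of 10 inflammatory genes that glucocorticoids repress, 7 were tested. In Homo-cKO against WT, where 12.7% of all genes passed, 4 rose and 1 fell. Their median log2 fold change was 1.05, beside 0.01 for all genes. The summed level of the 10 was not higher, at 253 to 403 CPM in WT and 221 to 356 CPM in Homo-cKO mice. A sum of CPM follows the genes with the most counts, so it does not show how the other genes of the list changed. Without the 4 mice with high Fos, where 8.34% of all genes passed, 6 were tested and 3 rose, with a median of 0.96. Of 9 immediate-early genes, 7 were tested and 6 rose, with a median of 3.23. Of the 7, 4 rose without those mice, with a median of 0.79. The 7 members themselves had a median of -0.11, and of -0.28 without them.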

How the data were processed

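Single-end reads had been mapped by the authors to mm10 with OmicSoft OSA4, and RSEM gave estimated counts per gene of Ensembl R84. Expected counts as deposited, which are not normalized for depth or length, were rounded to whole numbers. Labels list 25 mice, and 1 WT female and 1 Het-cKO male had no column. Symbols and GRCm38 coordinates were matched for 42929 of 43411 identifiers. Members and lists were chosen with earlier results of these data known.

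Genes were filtered with filterByExpr (12908 kept), normalized by TMM and tested with edgeR 4.0.16 (R 4.3.3) by the quasi-likelihood test with 3 genotypes and sex in the fit, and Benjamini-Hochberg adjustment. A gene passed at an adjusted p below 0.05 and was a DEG when its fold change was also above 1.5. A fit with Homo-cKO mice split by number range, and a fit of genotype and sex together, gave the other comparisons. Standard errors come from fold change and test statistic. CPM uses TMM-scaled totals, and log2 CPM has a prior count of 2. Correlations used 100000 permutations (SciPy 1.17.1), two-sided. The fits were tested on simulated data. Total counts limit precision for genes of a few CPM.

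All members were named. From the receptor and induced lists, genes that passed in Homo-cKO against WT (up to 6 per list by smallest p) and the 2 with the highest mean CPM that did not were named, and other lists were given as counts. Genes most like Fkbp5 and Tsc22d3 were the 3 with the highest r of residuals at a mean CPM of at least 5. Per1, Nr3c2 and the enzymes Hsd11b1 and Hsd11b2 were named after their values were seen. Alternatives were DESeq2 1.42.0, limma-voom (limma 3.58.1), other normalizations and filters, no sex term, an immediate-early score as covariate, the 2 groups alone, each number range of Homo-cKO mice, and each mouse left out. Leaving out the 4 mice with Fos above 100 CPM was added after the data were seen. Figures used matplotlib 3.10.9 (Python 3.11.15).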

Additional observations from a re-analysis of the deposited data

Results flagged for a closer look

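Each group of 4 to 10 mice was examined for a mouse that stands apart in CPM of a member, by its gap to the nearest other mouse over the range of the group. For independent groups of normally distributed values, chance flags about 1 in 20. Here 7 marks fell in 40 groups. The groups overlap, because each Homo-cKO mouse is also in its range, and CPM was not tested for that distribution, so no excess can be read from this. Nr3c1 was lowest in Homo-cKO mouse F-0342 at 168 CPM. Fkbp5 was highest in Homo-cKO mouse M-0436 at 162 CPM, which stood apart among all Homo-cKO mice and again among the 4 mice of range 04. Tsc22d3 and Ddit4 were highest in Het-cKO mouse F-0206, at 180 and 59.4 CPM. Klf9 was highest in Het-cKO mouse M-0227 at 2.96 CPM, and Zbtb16 in Homo-cKO mouse M-0344 at 0.606 CPM, both near the limit of what these counts resolve.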

How the results depend on the processing

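Of 371 values of members under the settings other than leaving out single mice, 347 kept their direction and their side of the threshold, 3 lost and 6 gained a call in the same direction, and 15 turned direction, 3 of which gained a call. No paired analysis was possible because the groups share no animal numbers. The number of members that passed in Homo-cKO against WT was 1, and 0 with Homo-cKO mice of range 04 alone (6.16% of all genes), and 0 to 1 with single mice left out. Fkbp5 lost its call with the immediate-early score (0.41, adjusted p = 0.15) and with range 04 alone (0.56, adjusted p = 0.062). With the score Sgk1 was called instead, where 7.09% of all genes passed. In Homo-cKO against Het-cKO the number of members that passed was 1, 3 with the immediate-early score (12.2% of all genes) and 2 without the mice with high Fos (14.9%). Between the ranges the number was 0 (0.442% of all genes), 2 by DESeq2 (1.3%), 2 without a filter on low counts (0.893%), and 0 to 2 with single mice left out. The shares of all genes with single mice left out are not given here. All genes called between the ranges were 57 by edgeR, 168 by DESeq2, 20 by limma-voom and 221 without a filter, and male against female 11, 21 and 12 by edgeR, DESeq2 and limma-voom.

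In Homo-cKO against WT, with the immediate-early score, range 04 alone and without the mice with high Fos, Tsc22d3 turned to -0.53, -0.54 and -0.35 and Sgk1 to -0.53, -0.38 and -0.37. Dusp1 turned to -0.34 with the score and Rhob to -0.09, or -0.05 with range 04. In Homo-cKO against Het-cKO, Sgk1 turned to -0.50 and -0.30 with the score and without those mice. Between the ranges, with the same settings, Nr3c1 turned to -0.06 and -0.06 and Ddit4 to -0.25 and -0.22, and Sgk1 to 0.14 with the score. In Het-cKO against WT, Nr3c1 turned to -0.01 without a sex term and Klf9 to 0.01 with 2 groups alone. With single mice left out, Tsc22d3 in Homo-cKO against WT ran from -0.04 to 0.22, Het-cKO against WT from -0.02 to 0.04 for Nr3c1, -0.10 to 0.01 for Sgk1 and -0.34 to 0.08 for Klf9, and the ranges from -0.00 to 0.06 for Nr3c1, -0.20 to 0.23 for Fkbp5 and -0.20 to 0.26 for Ddit4. Comparisons within a sex were not run under other settings, nor was each range against WT beyond leaving out the mice with high Fos. The cause of these turns was not tested. Dusp1 was not called by limma-voom (3.35, adjusted p = 0.35).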
